A study of Mus musculus with 10 samples.

Results

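Ahr, the gene of the aryl hydrocarbon receptor, and 6 genes that work with it or respond to it were followed in J558, a murine plasma-cell tumour line. The genes are Arnt, Ahrr, Tiparp, Cyp1a1, Cyp1b1 and Nqo1, so the set holds 7 of the 19937 genes with a probe set of their own on the array. Ahr was chosen by its level on these arrays, which was higher in cells given wild-type Pax5 than in cells given empty vector; the other genes were chosen by their known roles, with earlier results of these arrays known. The question was whether the target genes follow Ahr.

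RNA was measured on 10 arrays. The groups were 4 cultures of J558 cells infected with MSCV-PIG Pax5 G183S, 3 infected with MSCV-PIG Pax5 WT and 3 infected with the MSCV-Puro-IRES-GFP (PIG) empty vector, which the labels call independent biological replicates. All groups carry the retroviral vector with its puromycin resistance and green fluorescent protein, were selected in puromycin (5 to 7 days) and sorted for green fluorescence and IgM, and the Pax5 of the first 2 groups was introduced into a plasma-cell line, a stage at which the gene is normally shut off. Values are log2 expression per probe set, so that a difference of 1 is a doubling. Whether the 10 cultures came from separate infections is not given beyond the word independent, and p-values measure the spread between these cultures.

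The aryl hydrocarbon receptor is a ligand-activated transcription factor of the bHLH-PAS family. Without ligand it rests in the cytosol in a complex with the chaperone HSP90. After binding a ligand such as a dioxin, a polycyclic aromatic hydrocarbon or a tryptophan metabolite, it enters the nucleus, pairs with ARNT and binds xenobiotic response elements near target genes such as Cyp1a1, Cyp1b1 and Nqo1. AHRR and TIPARP are induced by the receptor and act back on it as inhibitors. In mouse B cells the receptor is known for the dioxin-induced loss of IgM secretion, and more Ahr transcript alone does not tell whether a ligand is present.

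The arrays had medians of 6.81 to 6.94 log2 units, and pairs of them correlated at 0.978 or more across genes. The introduced gene, Pax5, read 9.38 to 10.36 in the G183S arrays, 10.05 to 10.67 in the WT arrays and 6.84 to 7.10 in the empty-vector arrays. All 7 plasma-cell markers looked up, such as Xbp1 and Sdc1, read above 6.89, the median of all probe sets, in every array; a gene below that level is called dim here, since background signal was not used. Of the markers of other cells, 3 of 5 B-cell genes, 3 of 5 stromal genes and 1 of 3 hepatocyte genes were above it in every array of every group, whereas 0 of 5 T-cell and 0 of 6 myeloid genes were above it in every G183S array or in every WT array, and 1 of each (Cd4 and Mpo) in every empty-vector array. Mpo, of neutrophil granules, read 6.28, 7.31, 7.99 and 7.74 in the G183S arrays, 6.31, 6.19 and 6.85 in the WT arrays, and 7.67, 7.41 and 7.12 in the empty-vector arrays. The macrophage gene Adgre1 was above the line in G183S replicates 2 to 4 (7.16 to 7.56) and in empty-vector replicate 1 (7.17). It read 5.76 in G183S replicate 1, 5.59 to 6.03 in the WT arrays, and 6.88 and 6.27 in empty-vector replicates 2 and 3. The mean of the 5 T-cell genes lay between 5.86 and 6.09 in the G183S arrays, between 5.92 and 6.08 in the WT arrays and between 6.33 and 6.70 in the empty-vector arrays. That of the 5 B-cell genes lay between 8.46 and 8.84 in the G183S arrays, 8.61 and 8.84 in the WT arrays, and 8.18 and 8.28 in the empty-vector arrays. That of the 6 myeloid genes lay between 5.63 and 6.28 in the G183S arrays, 5.64 and 5.85 in the WT arrays, and 5.90 and 6.06 in the empty-vector arrays. For the 7 plasma-cell genes the mean lay between 10.93 and 11.97 with G183S, 11.46 and 11.98 with WT, and 11.82 and 12.01 with empty vector. The B-cell means of both Pax5 groups were above, and the T-cell means below, those with empty vector. The myeloid means with WT were below those with empty vector and overlapped those with G183S. The B-cell rise lay mainly in Ms4a1, averaging 12.24 with G183S, 12.41 with WT and 9.98 with empty vector. Cd79b was lower with Pax5 (12.52, 12.35 and 12.78), Cd22 nearly level (8.92, 8.88 and 8.87), and Cd79a and Cr2 dim. The T-cell fall lay in Cd3g (5.02, 5.08 and 6.17) and Cd4. Cd4 read 6.37 to 6.77 with Pax5 and 7.09 to 9.29 with empty vector. Cd3d, Cd3e and Cd8a were dim and nearly level. The part of these lists in the results was not tested.

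Ahr read higher with either Pax5 vector than with empty vector, with the highest mean for wild type, and this is the difference for which it was chosen, so it is described without a test. In probe set 10400006 the log2 level was 9.56, 9.24, 7.72 and 9.14 in G183S replicates 1 to 4, 10.31, 10.33 and 9.21 in the WT arrays, and 7.28, 7.59 and 7.53 in the empty-vector arrays. Every Pax5 array lay above every empty-vector array, but G183S replicate 3 only just did. That culture also had the lowest Pax5 reading of the 7 with a Pax5 vector, 9.38. The other cultures did not keep the same order in both genes. WT replicate 2, the highest in Ahr, read 10.09 in Pax5, below G183S replicate 2 at 10.36.

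The mean of Ahr was 8.92 ± 0.82 (SD, n = 4) with G183S, 9.95 ± 0.64 (n = 3) with WT and 7.47 ± 0.16 (n = 3) with empty vector. The log2 difference was 2.48 ± 0.44 (limma SE) between WT and empty vector, a 5.58-fold higher level, and 1.45 ± 0.42 between G183S and empty vector, a 2.73-fold higher level. Between G183S and WT it was -1.03 ± 0.42, with overlapping groups, since WT replicate 3 lay among the G183S values. Without G183S replicate 3 the difference between G183S and WT was -0.63. In bulk RNA, more cells with Ahr transcript and more transcript per cell cannot be told apart.

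**Figure D1:**
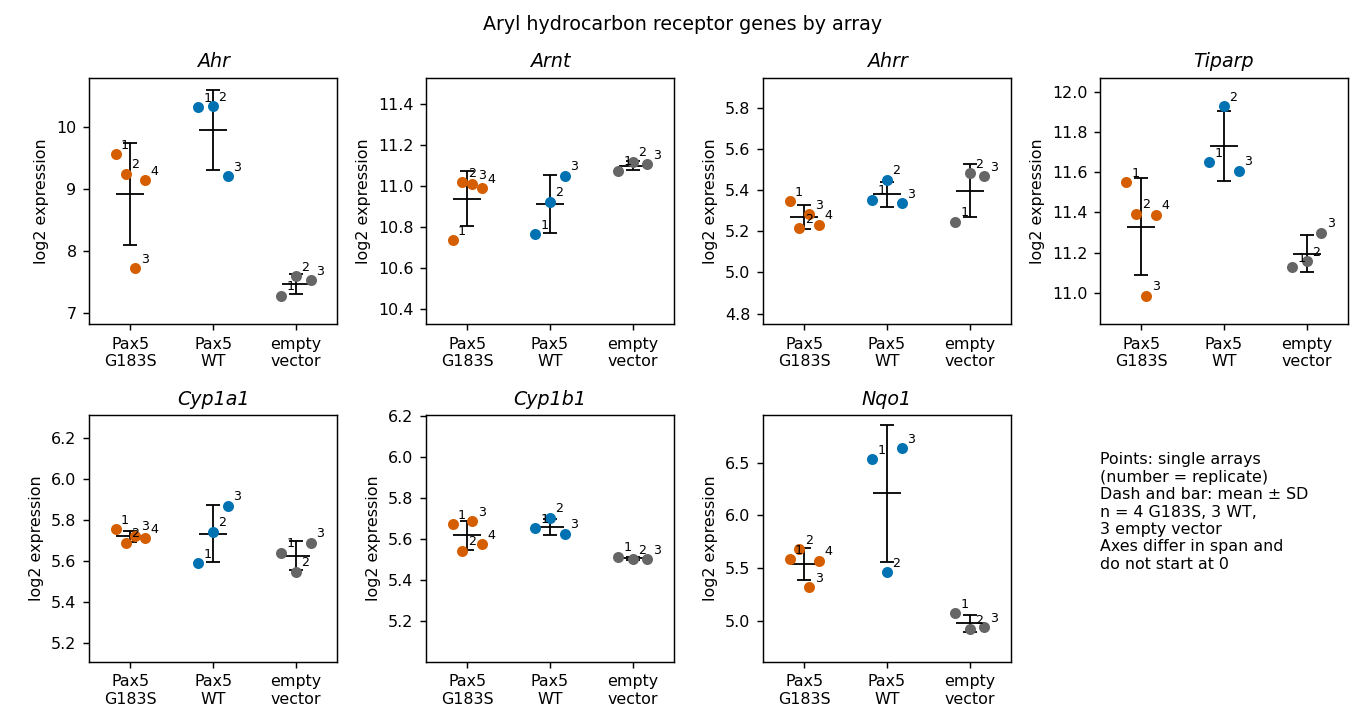
Log2 expression (y axis) of the 7 genes in each array, by group (x axis); points are arrays labelled with their replicate number, and dashes with bars are means ± SD (n = 4 G183S, 3 WT, 3 empty vector). Ahr spans 7.28 to 10.33, whereas Ahrr, Cyp1a1 and Cyp1b1 lie between 5.22 and 5.87 in all arrays.

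Arnt, the gene of the partner with which the receptor binds DNA, was well expressed and nearly level across groups. Its probe set (10494238) read 10.74, 11.02, 11.01 and 10.99 in the G183S arrays, 10.77, 10.92 and 11.05 in the WT arrays, and 11.08, 11.12 and 11.11 in the empty-vector arrays. All 7 Pax5 arrays were below all empty-vector arrays, by small amounts. The log2 difference was -0.16 ± 0.09 SE for G183S against empty vector (limma adjusted p = 0.576) and -0.19 ± 0.10 SE for WT against empty vector (limma adjusted p = 0.382), so neither passed. The 95% interval of the WT difference was -0.40 to 0.03.

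The promoters of Tiparp, Nqo1 and Ahrr are shown because Tiparp and Nqo1 had the largest differences among the target genes and Ahrr the smallest between WT and empty vector, a choice made after the values were seen. Each window runs from 250 bases before to 50 bases after the RefSeq start in GRCm38.p6, written 5′ to 3′ on the strand of the gene. Tiparp lies at chr3:65528197-65528496, plus strand, Nqo1 at chr8:107403156-107403455, minus strand and Ahrr at chr13:74292282-74292581, minus strand. Capitals mark the xenobiotic response element core, GCGTG, or CACGC where it lies on the other strand.
Tiparp: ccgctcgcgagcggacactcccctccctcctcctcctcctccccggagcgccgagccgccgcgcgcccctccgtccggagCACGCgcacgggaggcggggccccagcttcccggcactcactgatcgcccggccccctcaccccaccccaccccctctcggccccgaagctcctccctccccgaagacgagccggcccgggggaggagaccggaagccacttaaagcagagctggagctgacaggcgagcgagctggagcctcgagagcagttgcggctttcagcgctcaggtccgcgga
Nqo1: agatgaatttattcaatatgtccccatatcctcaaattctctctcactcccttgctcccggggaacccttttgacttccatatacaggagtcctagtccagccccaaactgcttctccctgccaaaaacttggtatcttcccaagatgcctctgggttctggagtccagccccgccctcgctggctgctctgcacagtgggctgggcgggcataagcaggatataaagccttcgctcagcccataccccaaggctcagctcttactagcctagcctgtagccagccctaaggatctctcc
Ahrr: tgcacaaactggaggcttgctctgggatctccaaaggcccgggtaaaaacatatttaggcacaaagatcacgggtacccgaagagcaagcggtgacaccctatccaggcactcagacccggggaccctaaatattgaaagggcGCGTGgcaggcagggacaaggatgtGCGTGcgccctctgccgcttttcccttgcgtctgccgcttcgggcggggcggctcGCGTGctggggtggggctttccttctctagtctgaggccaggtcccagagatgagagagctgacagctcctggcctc

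The Ahrr window held 3 cores, 1 of them within the longer element TNGCGTG, the Tiparp window held 1 core and the Nqo1 window 0. The windows of Cyp1a1, Cyp1b1 and Arnt held 1 core each, and the table of sequences matched 6 of the 7 genes. Of 32851 promoter windows of this length, 32.4% held at least 1 core on either strand, 3.91% held 3 or more, and 5.07% held TNGCGTG, which contains the core. The antioxidant response element core TGACNNNGC, searched on both strands because Nqo1 is also a target of the oxidative-stress factor NRF2, was found in 0 of the 3 windows shown and in 12.4% of all windows. A match in these letters is a description, and elements farther from the start were not searched.

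Nqo1, which encodes a quinone reductase controlled by both the receptor and NRF2, was the only one of the 6 genes other than Ahr that passed the test in any comparison. Its probe set (10581538) read 5.58, 5.68, 5.32 and 5.57 in the G183S arrays, 6.53, 5.46 and 6.64 in the WT arrays, and 5.07, 4.92 and 4.94 in the empty-vector arrays. WT replicates 1 and 3 were the highest, and WT replicate 2 lay among the G183S values although its Ahr reading was the highest of all arrays. Every Pax5 array was above every empty-vector array.

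Nqo1 averaged 5.54 ± 0.15 (SD, n = 4) with G183S, 6.21 ± 0.65 (n = 3) with WT and 4.98 ± 0.08 (n = 3) with empty vector. It rose with WT by 1.23 ± 0.26 log2 units over empty vector (SE, limma adjusted p = 0.0453), a 2.35-fold higher level. With G183S it was 0.56 ± 0.24 above empty vector, short of the threshold (limma adjusted p = 0.412), and the difference between G183S and WT was -0.67 ± 0.24 (limma adjusted p = 0.499). The call with WT was lost without any 1 of 8 of the 10 arrays, with adjusted p up to 0.179, without empty-vector replicate 2. It held without WT replicate 2 (adjusted p = 0.00126) and without G183S replicate 1 (adjusted p = 0.0289), and was lost with each array centred on its median (adjusted p = 0.0545) and with only the arrays of the compared groups (adjusted p = 0.0734). With array weights the difference was 0.76 (adjusted p = 0.0507). Nqo1 was dim in all arrays.

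Tiparp, which encodes a mono-ADP-ribosyltransferase that is induced by the receptor and represses it, followed Ahr most closely. Its probe set (10492428) read 11.55, 11.39, 10.99 and 11.39 in the G183S arrays, 11.65, 11.93 and 11.61 in the WT arrays, and 11.13, 11.16 and 11.30 in the empty-vector arrays. The 3 WT arrays were above all others, and G183S replicate 3, low in Ahr, was the lowest of all. Tiparp averaged 11.33 ± 0.24 (SD, n = 4) with G183S, 11.73 ± 0.17 (n = 3) with WT and 11.20 ± 0.09 (n = 3) with empty vector.

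The difference in Tiparp between WT and empty vector was 0.53 ± 0.14 log2 units (SE, 95% interval 0.22 to 0.85), which did not pass when adjusted over all genes (limma adjusted p = 0.0931). It passed when G183S replicate 1 (limma adjusted p = 0.0443) or 3 (limma adjusted p = 0.0343) was left out of the fit to all arrays. In separate fits it passed with only the arrays of the compared groups (limma adjusted p = 0.0476) and with array weights (limma adjusted p = 0.00452). G183S differed from empty vector by 0.13 ± 0.13 (limma adjusted p = 0.814) and from WT by -0.40 ± 0.13, with no overlap between the last 2 groups (limma adjusted p = 0.493), a difference that passed with array weights (adjusted p = 0.0180).

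Ahrr, the gene of the receptor's own repressor, read much the same in all groups and was dim. Its probe set (10410604) read 5.35, 5.22, 5.28 and 5.23 in the G183S arrays, 5.35, 5.45 and 5.34 in the WT arrays, and 5.25, 5.48 and 5.47 in the empty-vector arrays. The groups overlapped in all 3 comparisons. The log2 difference was -0.02 ± 0.08 SE for WT against empty vector, with a 95% interval of -0.19 to 0.16 (limma adjusted p = 0.942), and -0.13 ± 0.07 SE for G183S against empty vector (limma adjusted p = 0.591).

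The cytochrome P450 genes Cyp1a1 and Cyp1b1, whose enzymes oxidise receptor ligands, stayed dim in every array. Cyp1a1 (probe set 10585749) read 5.76, 5.69, 5.72 and 5.71 in the G183S arrays, 5.59, 5.74 and 5.87 in the WT arrays, and 5.64, 5.55 and 5.69 in the empty-vector arrays. The WT and empty-vector arrays overlapped. The log2 difference of Cyp1a1 was 0.11 ± 0.08 SE for WT against empty vector (limma adjusted p = 0.561; 95% interval -0.07 to 0.28) and 0.09 ± 0.07 SE for G183S against empty vector (limma adjusted p = 0.746).

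Cyp1b1 (probe set 10453057) read 5.67, 5.54, 5.69 and 5.57 in the G183S arrays, 5.65, 5.70 and 5.63 in the WT arrays, and 5.51, 5.50 and 5.50 in the empty-vector arrays. All Pax5 arrays were above all empty-vector arrays by small amounts. The log2 difference was 0.16 ± 0.06 SE for WT against empty vector (limma adjusted p = 0.260; 95% interval 0.02 to 0.29) and 0.11 ± 0.06 SE for G183S against empty vector (limma adjusted p = 0.525). Between G183S and WT, Cyp1a1 differed by -0.01 ± 0.07 and Cyp1b1 by -0.04 ± 0.06 (limma adjusted p = 0.960 and 0.818). At a dim level a probe set may understate a change, so the intervals describe the readings.

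**Figure D2:**
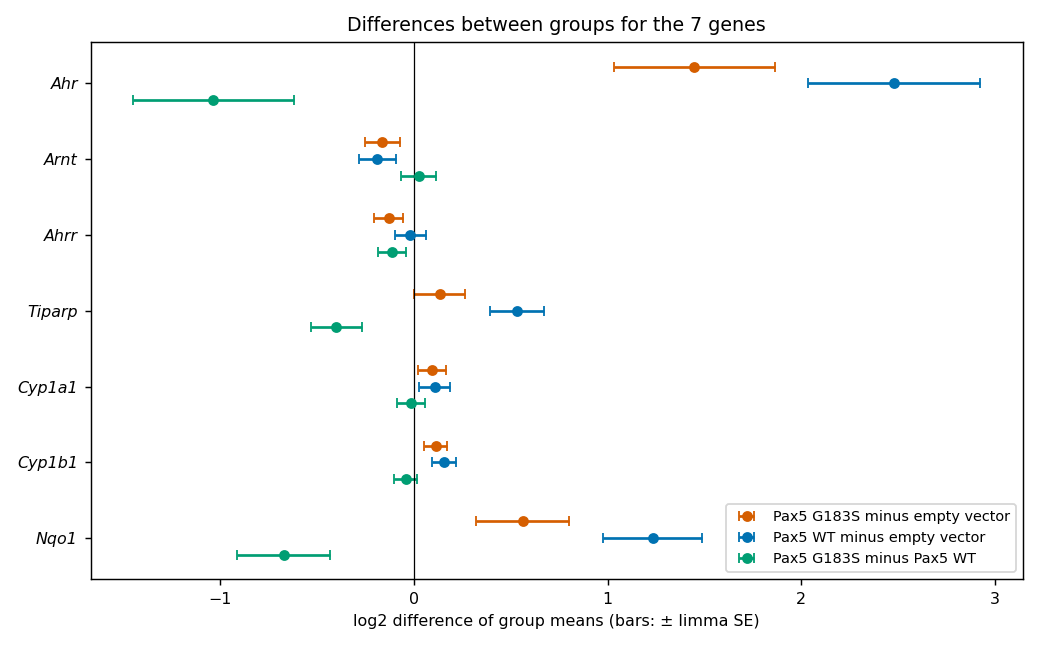
Log2 differences of group means (x axis, bars ± limma SE) for the 7 genes (rows), between G183S and empty vector, WT and empty vector, and G183S and WT. Ahr lies at 2.48 for WT and 1.45 for G183S over empty vector, Nqo1 at 1.23 and 0.56, and Cyp1a1, Cyp1b1, Ahrr and Arnt within 0.19 of 0.

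Counted over the 6 genes other than Ahr, 1 of 6 passed between WT and empty vector, where 1.88% of all 19937 genes did (0.883% higher and 0.993% lower), and 3 of 6 had an unadjusted p under 0.05, as did 15.9% of all genes. Between G183S and empty vector 0 of 6 passed in limma, against 0.311% of all genes (0.211% lower), and 1 of 6 had an unadjusted p under 0.05, as did 11.3% of all genes. Between G183S and WT 0 of 6 passed, as did 0% of all genes, and 2 of 6 (Tiparp and Nqo1) had an unadjusted p under 0.05, as did 9.48% of all genes. Without G183S replicate 1, 1113 of all genes passed between G183S and WT, and still 0 of the 6. The median log2 difference of the 6 genes was 0.13 for WT over empty vector and 0.10 for G183S over empty vector, beside 0.01 and -0.003 for all genes.

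Groups that did not overlap were common among all genes. Between WT and empty vector 4 of the 6 genes did not overlap, 3 higher (Tiparp, Cyp1b1 and Nqo1) and 1 lower (Arnt), where 24% of all genes did not, 11.5% higher and 12.5% lower. Between G183S and empty vector 4 of the 6 did not overlap, 3 higher (Cyp1a1, Cyp1b1 and Nqo1) and 1 lower (Arnt), where 11.6% of all genes did not, 5.02% higher and 6.56% lower. These comparisons share the empty-vector arrays. Between G183S and WT 1 of 6, Tiparp, did not overlap, with G183S lower, where 6.5% of all genes did not, 4.17% lower.

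Among the 7 cultures with a Pax5 vector, only Tiparp had a relation with Ahr that passed a test. Over these arrays Pearson's r between Tiparp and Ahr was 0.93 (exact permutation p = 0.00337, adjusted p = 0.0202 over 6 genes, two-sided) and Spearman's rho was 0.89 (exact permutation p = 0.0123, adjusted p = 0.0738). Without the 2 arrays farthest from the median of Ahr, G183S replicate 3 and WT replicate 2, r was 0.68 over 5 arrays. Without G183S replicate 3 alone r was 0.81 (exact permutation adjusted p = 0.196). The test was also lost without G183S replicate 4 (r = 0.93, exact permutation adjusted p = 0.0583), WT replicate 1 (0.96, adjusted p = 0.0833) or WT replicate 2 (0.92, adjusted p = 0.0750). The permutations exchanged values between G183S and WT arrays, whose means differed in both genes. Their p-values therefore do not separate a relation within groups from the difference between groups. With each group centred on its own mean, r was 0.89, given without a p because centred values cannot be exchanged between groups. An r at least as far from 0 was found for 241 of 19936 genes (1.21%).

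For the other 5 genes no relation with Ahr passed among these 7 cultures. Pearson's r with Ahr was 0.37 for Nqo1 (exact permutation adjusted p = 0.581), 0.59 for Ahrr (adjusted p = 0.404), 0.10 for Cyp1b1 (adjusted p = 0.830), -0.27 for Cyp1a1 (adjusted p = 0.668) and -0.56 for Arnt (adjusted p = 0.404). Spearman's rho was 0.21, 0.75, 0.32, -0.07 and -0.57 for the same genes, with exact permutation adjusted p from 0.199 for Ahrr to 0.906 for Cyp1a1. Without the 2 farthest arrays, r was 0.44, 0.62, 0.61, -0.69 and -0.78. The empty-vector arrays were left out of these values because they form a cluster of low Ahr that would set a pooled r.

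**Figure D3:**
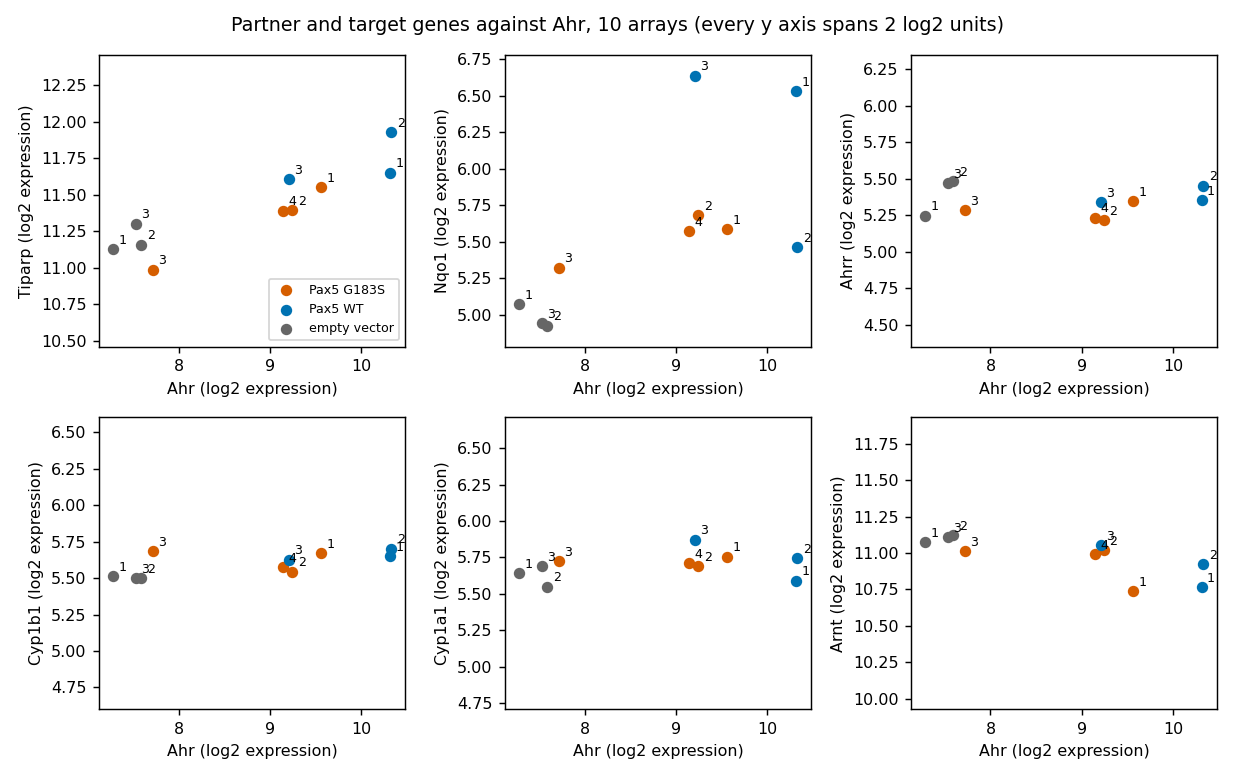
Log2 expression of Tiparp, Nqo1, Ahrr, Cyp1b1, Cyp1a1 and Arnt (y axes, each spanning 2 log2 units) against Ahr (x axis, log2) in 10 arrays, coloured by group and labelled by replicate. Tiparp increases with Ahr, with G183S replicate 3 low in both; Nqo1 reads 5.46 in WT replicate 2, where Ahr is 10.33; the other panels are nearly level.

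Further genes of the pathway were looked up in 6 lists of 93 distinct genes, of which 83 had a probe set of their own. In the list of other genes induced by the receptor, 0 of 18 measured members passed in limma in any comparison. In each comparison 1 of the 18 had an unadjusted p under 0.05, where 15.9% (WT over empty vector), 11.3% (G183S over empty vector) and 9.48% (G183S against WT) of all genes did; these shares apply to the lists that follow too. The list holds Cyp1a2, a relative of Cyp1a1, with log2 differences of 0.20 for WT (limma adjusted p = 0.309) and 0.12 for G183S over empty vector (limma adjusted p = 0.686), and Scin, an actin-severing protein gene, with -0.13 and -0.18 (limma adjusted p = 0.454 and 0.371). Cyp1a2 and Scin were dim in all arrays. The median of the 18 was 0.004 for WT and -0.004 for G183S over empty vector, and 6 of the 18 had a mean at or above the dim level. Polk, a DNA polymerase gene, had a log2 difference of -0.56 for WT (limma adjusted p = 0.397), and Entpd1, the gene of the ectonucleotidase CD39, of -0.19 (limma adjusted p = 0.534).

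Of the genes for the receptor's cytosolic complex and co-regulators, 1 of 10 rose with WT over empty vector, and 4, 3 and 2 of 10 had an unadjusted p under 0.05 in these 3 comparisons. Nrip1, which encodes a nuclear receptor co-regulator, read 9.21, 9.72, 8.67 and 9.37 in the G183S arrays, 10.23, 9.60 and 10.08 in the WT arrays, and 8.39, 8.40 and 8.32 in the empty-vector arrays. All Pax5 arrays were above all empty-vector arrays, and G183S replicate 3 was again the lowest of the 7. Nrip1 rose by 1.60 log2 units with WT (limma adjusted p = 0.0168) and was 0.87 higher with G183S, short of the threshold (limma adjusted p = 0.129). The call with WT held in 7 of 10 fits without 1 array, with adjusted p up to 0.0913. The chaperone gene Hsp90aa1 had log2 differences of 0.35 for WT (limma adjusted p = 0.136) and 0.23 for G183S over empty vector (limma adjusted p = 0.421), the coactivator gene Ncoa3 of -0.30 and -0.10 (limma adjusted p = 0.0722 and 0.678), and Cul4b, the gene of a ubiquitin ligase scaffold, of 0.17 and 0.26 (limma adjusted p = 0.324 and 0.156).

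Among 12 relatives of the bHLH-PAS family, Hif3a fell with both vectors, and 1, 3 and 1 of the 12 had an unadjusted p under 0.05 in the same comparisons. It encodes a hypoxia-inducible factor alpha subunit, a family that also pairs with ARNT. Hif3a read 6.43, 6.58, 6.84 and 6.49 in the G183S arrays, 6.50, 6.60 and 6.70 in the WT arrays, and 7.56, 7.38 and 7.12 in the empty-vector arrays. The empty-vector arrays were the only ones above the dim level. Hif3a fell by 0.75 log2 units with WT (limma adjusted p = 0.0261) and by 0.77 with G183S (limma adjusted p = 0.0391), and these comparisons share the empty-vector arrays. The calls held in 5 and 4 of 10 fits without 1 array, with adjusted p up to 0.130 and 0.197. Sim2 (0.34 for G183S over empty vector, limma adjusted p = 0.148), Clock (0.29, limma adjusted p = 0.352) and Arntl (-0.24, limma adjusted p = 0.549), of which the last 2 form the circadian clock's activator pair, did not pass.

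Targets of NRF2, which shares Nqo1 with the receptor, were examined to see whether Nqo1 stood among others of that pathway. Of 20 measured, 1 rose with WT and 0 passed with G183S in limma, and 5, 2 and 4 of 20 had an unadjusted p under 0.05 in the same comparisons. Slc7a11, the gene of the cystine-glutamate exchanger, read 10.72, 11.03, 10.73 and 10.98 in the G183S arrays, 11.33, 11.25 and 11.06 in the WT arrays, and 10.21, 10.48 and 10.25 in the empty-vector arrays, so that the 3 groups did not overlap. It rose by 0.90 with WT (limma adjusted p = 0.0111) and was 0.55 higher with G183S, short of the threshold (limma adjusted p = 0.0754). Gclc, of glutathione synthesis (0.58, limma adjusted p = 0.182), Keap1, the gene of the NRF2 inhibitor (-0.24, limma adjusted p = 0.267), and Osgin1 (-1.17, limma adjusted p = 0.217), all for WT over empty vector, did not pass. The list median was 0.05 for WT and 0.04 for G183S over empty vector.

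Targets of the hypoxia-inducible factors, which also use ARNT, had 0 of 14 members past the threshold in limma in any comparison, with 3 at an unadjusted p under 0.05 for WT over empty vector, 3 for G183S over empty vector and 0 for G183S against WT. Their median was -0.14 for G183S and 0.05 for WT over empty vector. Ndrg1 read 8.36, 10.20, 10.08 and 10.32 in the G183S arrays, 8.53, 9.00 and 10.44 in the WT arrays, and 8.34, 7.98 and 8.10 in the empty-vector arrays, and did not pass (log2 difference 1.60 for G183S, limma adjusted p = 0.241; 1.18 for WT, limma adjusted p = 0.343). The glucose transporter gene Slc2a1 had -0.41 for G183S and -0.47 for WT (limma adjusted p = 0.195 and 0.111), Egln1, of the oxygen sensor, -0.28 and -0.65 (limma adjusted p = 0.758 and 0.228), and Vegfa 0.15 and 0.28 (limma adjusted p = 0.719 and 0.304).

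Genes for enzymes that make or consume tryptophan-derived ligands had 0 of 11 members past the threshold in limma in any comparison, with 1 at an unadjusted p under 0.05 for WT over empty vector and 0 in the other comparisons. Kmo, the gene of kynurenine 3-monooxygenase, read 8.65, 6.21, 7.01 and 7.41 in the G183S arrays, 7.99, 9.10 and 6.87 in the WT arrays, and 8.51, 8.66 and 8.58 in the empty-vector arrays. It varied widely within both Pax5 groups and had a log2 difference of -1.26 for G183S over empty vector (limma adjusted p = 0.455). Afmid, of kynurenine formation (-0.90 for WT, limma adjusted p = 0.0915), Kyat3 (0.45, limma adjusted p = 0.633) and Tph1, of serotonin synthesis (0.004, limma adjusted p = 0.987), did not pass either.

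Over the 83 distinct genes of these lists, 3 (3.61%) passed between WT and empty vector and 1 (1.2%) between G183S and empty vector, beside 1.88% and 0.311% of all genes; 0 passed between G183S and WT.

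**Figure D4:**
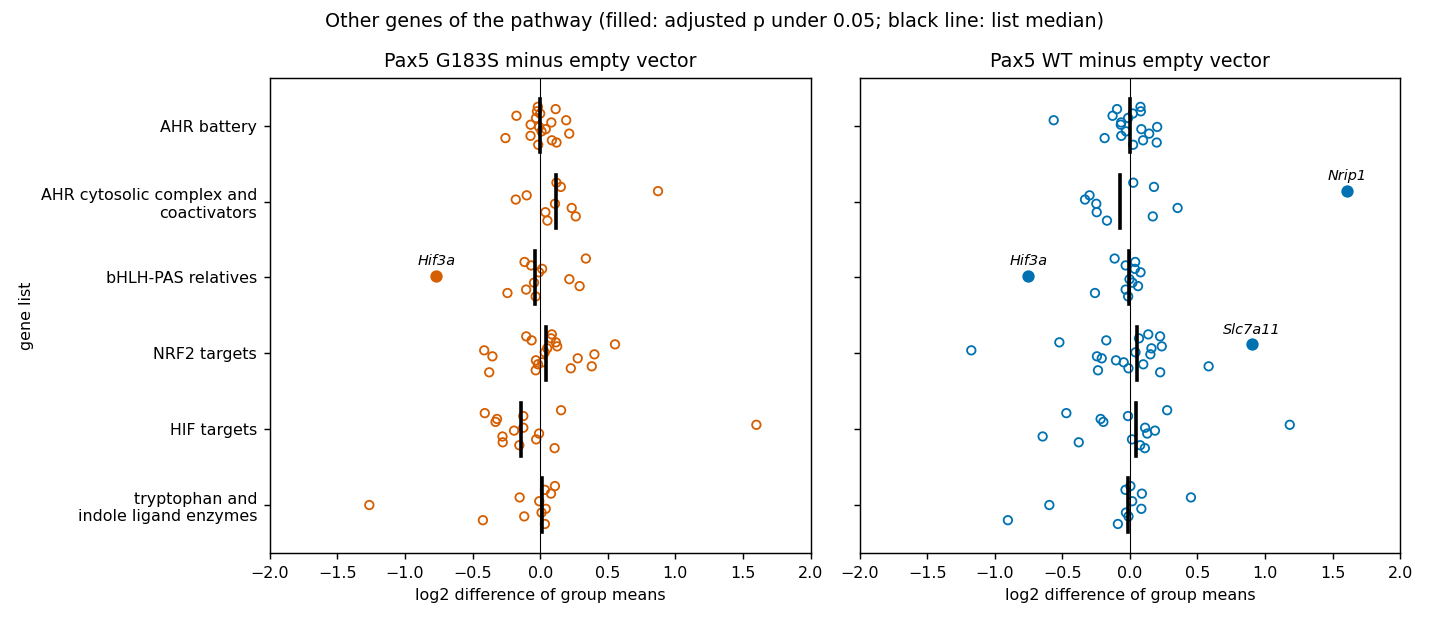
Log2 differences (x axis) of the measured genes of 6 lists (rows), for G183S minus empty vector (left) and WT minus empty vector (right); filled points passed limma's adjusted p of 0.05, and black lines are list medians. Hif3a is filled on both sides, and Nrip1 and Slc7a11 are filled for WT.

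Genes whose pattern over the 10 arrays was most like that of Ahr, by Pearson's r, were Smc1a (0.988), a cohesin subunit gene, Ccdc18 (0.987), Peli1 (0.986), which encodes a ubiquitin ligase of Toll-like receptor signalling, Cenpe (0.980), a kinetochore motor gene, Rrm2b (0.976), a ribonucleotide reductase subunit gene, and Zfp101 (0.973). The most opposed were Tob1 (-0.985), an antiproliferative gene, Rilpl2 (-0.980) and the retinal reductase gene Dhrs3 (-0.972). Tiparp, with r of 0.896, stood at rank 142 of 17022 genes ordered from the highest r, Nqo1 (0.701) at 1056, Cyp1b1 (0.658) at 1349, Cyp1a1 (0.283) at 4822, Ahrr (-0.027) at 8623 and Arnt (-0.752) at 16269. These values are descriptive, since all arrays of the Pax5 groups lie above the empty-vector arrays in Ahr.

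Peli1 shows how such a pattern looks, with 11.29, 11.22, 10.91 and 11.21 in the G183S arrays, 11.63, 11.54 and 11.34 in the WT arrays, and 10.72, 10.76 and 10.81 in the empty-vector arrays. G183S replicate 3 was the lowest Pax5 array, as for Ahr and Tiparp. Dhrs3, in the opposite direction, read 7.90, 8.59, 9.19 and 8.67 in the G183S arrays, 7.53, 7.68 and 8.50 in the WT arrays, and 9.42, 9.48 and 9.54 in the empty-vector arrays.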

How the data were processed

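Each deposited column holds log2 expression for 1 array, made by the authors; the submitters' processing notes name RMA and Partek, with neither version nor role. RNA was amplified from 100 ng total RNA, per the labels' protocols. RMA equalises arrays, which would hide a change common to most genes; scan dates and background signal were not used here. Of 34760 probe sets, 21640 had 1 gene symbol in the platform annotation, 1321 had several and 11799 were not listed; the highest-mean probe set stood for each of 19937 genes, and each of the 7 genes had 1. Symbols were checked by gene identifier against RefSeq GRCm38.p6 (21553 matched, 0 changed).

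All 10 arrays were fitted with limma 3.58.1 in R 4.3.3, 1 coefficient per group, with Benjamini-Hochberg adjustment over 19937 genes and a threshold of 0.05. No filter was used in these fits. The fits were run on simulated data with independent arrays of equal spread for each gene, so the simulation does not cover arrays of unequal weight. Relations with Ahr used exact permutation over all orders of 7 arrays, G183S and WT pooled (smallest p 1.98e-04).

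The genes and lists were chosen with earlier results of these data known. Named genes are the 7, Pax5, up to 4 per list with the smallest adjusted p, and the 6 most and 3 least like Ahr, without symbols of predicted genes, clones, small RNAs, odorant receptors and antigen-receptor segments; Nrip1, Hif3a and Slc7a11 fall under the list rule. Alternatives were 2-group fits, median centring, leaving out dim genes, array weights, a replicate block, an intensity trend, probe-set means and leaving out each array. Figures used Python 3.11.15 and matplotlib 3.10.9.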

Additional observations from a re-analysis of the deposited data

Results flagged for a closer look

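In the group of 4 G183S arrays, 6 of 41 named genes had 1 array set far apart from the other 3, by Dixon's criterion at the 95% level. For a single gene chance meets it in about 1 in 20 groups. The named genes share these arrays, and some were chosen for their likeness to Ahr, so their count cannot be judged by that rate. G183S replicate 1 was the array in 5 of them, all low: Arnt at 10.74 (the others 10.99 to 11.02), Polk at 8.67 (9.79 to 9.93), Arntl at 8.19 (8.63 to 8.70), Egln1 at 9.15 (10.08 to 10.10) and Ndrg1 at 8.36 (10.08 to 10.32). G183S replicate 3 was the array for Zfp101, at 7.65 (8.13 to 8.15). Neither Ahr nor a target gene other than these met the criterion, and G183S replicate 1 had the lowest weight of all arrays, 0.335, when weights were estimated over all genes.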

How the results depend on the processing

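The Ahr differences kept their sign and moved by less than the spread between replicates under every alternative run; leaving out 1 array gave 2.29 to 2.85 for WT and 1.23 to 1.85 for G183S over empty vector and -1.41 to -0.63 for G183S against WT. The count of the 6 other genes past the threshold between WT and empty vector (1, Nqo1) was 0 with median centring, without dim genes (Nqo1 is then not tested) and with the replicate block (Nqo1, adjusted p = 0.0812), 2 with array weights (Tiparp, adjusted p = 0.00452, and Cyp1b1, adjusted p = 0.0415), and 0 to 2 without 1 array; with only the compared groups it was 1, but Tiparp (adjusted p = 0.0476) in place of Nqo1 (adjusted p = 0.0734). Between G183S and empty vector it was 0 throughout, and between G183S and WT 0 without any 1 array and 1 with array weights (Tiparp, adjusted p = 0.0180). Genes past the threshold over the whole table were 587 with only the compared groups, 2576 with array weights, 228 with the replicate block and 6 to 1033 without 1 array for WT against empty vector (374 in the fit to all arrays), 1449, 10 and 8 to 295 for G183S against empty vector with weights, block and 1 array left out (62), and 2752, 2 and 0 to 1113 for G183S against WT (0). List genes past it were 12 with array weights and 0 to 6 without 1 array for WT against empty vector (3), 0 with only the compared groups, 9 with weights, 0 with the replicate block and 0 to 3 without 1 array for G183S against empty vector (1), and 13 with weights and 0 to 5 without 1 array for G183S against WT (0). The highest whole-table counts without 1 array, 1033, 295 and 1113, were all without G183S replicate 1. For G183S against WT, leaving out any other array gave at most 3.

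Pearson's r between Tiparp and Ahr ranged from 0.81 to 0.96 without 1 array; its test was lost without G183S replicates 3 and 4 and WT replicates 1 and 2 (exact permutation adjusted p = 0.196, 0.0583, 0.0833 and 0.0750). The Nrip1 call was lost without empty-vector replicates 2 and 3 and WT replicate 1, the Slc7a11 call without empty-vector replicate 3, and both Hif3a calls with the replicate block (adjusted p = 0.0714 for WT and 0.153 for G183S). Deviations of same-numbered arrays from their group means correlated at -0.16 to 0.51 (r above 0.1 in 3 of 9 pairs). Between G183S and WT, r was 0.51 for replicates 1, -0.16 for replicates 2 and 0.46 for replicates 3. G183S replicate 1 with WT replicate 3 gave -0.58, and G183S replicate 3 with WT replicate 1 gave -0.48. Only 4 of 10 arrays correlated best with their own number. Whether the numbers pair the cultures cannot be told from these values. The cause of the changes in calls between fits was not tested. Signal over background was not used here, so how far dim readings limit Ahrr, Cyp1a1, Cyp1b1 and Nqo1 is not known.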
